A study of Homo sapiens and Mus musculus with 8 samples.

Results

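The respiratory chain genes described here are 50 members out of 57598 genes in the tables of 2 cell lines. They were chosen by name: the 13 mitochondrially encoded protein genes and 24 nuclear subunit genes among the 35141 genes of human K562 cells, and the 13 mitochondrially encoded protein genes, listed by identifier, among the 22457 genes of mouse BaF3-T315I cells. K562 is a leukemia line from a patient with CML and expresses BCR-ABL. BaF3-T315I is a mouse pro-B line made to depend on a BCR-ABL with the T315I mutation, which blocks imatinib. In each line, the 2 groups were cells given JOA (Jiyuan oridonin A, an ent-kaurene diterpenoid) at 2 μM for 48 h and control cells kept for the same time, with 2 JOA and 2 control libraries of polyadenylated RNA per line, 8 libraries in all. The labels do not say what the control cells received or whether the 2 libraries of a group came from separate cultures, so the p-values rest on the spread between the libraries sequenced, which may be technical. Values are FPKM (fragments scaled to exon length and library size). In K562 cells the length that fits the values covers all annotated exons of a gene, whichever of them its mRNA holds. Levels of different genes can therefore be compared only roughly, whereas JOA and control values of the same gene share one length. Within a bulk library, less RNA per cell and fewer cells of a kind cannot be told apart.

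The respiratory chain sits in the inner mitochondrial membrane. Complexes I and II pass electrons to coenzyme Q, complex III passes them to cytochrome c, complex IV hands them to oxygen, and complex V (ATP synthase) uses the proton gradient that complexes I, III and IV build. Complex II is built from nuclear genes alone, whereas the other complexes combine nuclear subunits with subunits encoded on the small circular mitochondrial genome. That genome is transcribed as long RNAs that are cut into mRNAs, tRNAs and rRNAs, so its genes share promoters, and the amount of each mature RNA also depends on how long it lasts. K562 cells have an erythroid character, and red cells lose their mitochondria late in maturation.

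Reads can be hard to assign on this genome because neighbouring genes overlap. MT-ATP8 and MT-ATP6 (subunits of the ATP synthase membrane part) share 46 bases, chrM:8527-8572 on GRCh38, and are carried by one mRNA. MT-ND4L and MT-ND4 (membrane subunits of complex I) share 7 bases, chrM:10760-10766, and MT-ATP6 shares 1 base with MT-CO3. The MT-ATP8 transcript (plus strand, chrM:8366-8572, GENCODE 29) is shown because it had the lowest JOA to control ratio of the K562 members, with the bases that also belong to MT-ATP6 in capitals. The window around the MT-ND4L and MT-ND4 junction (plus strand, chrM:10740-10786) is shown for comparison, with the shared bases in capitals.
MT-ATP8: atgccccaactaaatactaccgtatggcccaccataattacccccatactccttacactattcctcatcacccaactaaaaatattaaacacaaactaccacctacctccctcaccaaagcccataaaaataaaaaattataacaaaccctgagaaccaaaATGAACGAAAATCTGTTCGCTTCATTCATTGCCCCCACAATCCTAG
MT-ND4L and MT-ND4: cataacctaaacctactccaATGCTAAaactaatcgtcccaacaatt

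In K562 cells, the mitochondrially encoded mRNAs were mostly lower with JOA, by amounts that differed from gene to gene. Of the 13 genes, 11 had both JOA values below both control values, and the JOA to control ratio of the means ran from 0.357 for MT-ATP8 to 0.990 for MT-ND5. Over all 15635 genes tested, 18.3% had both JOA values below both controls and 36.8% had both above. The summed level of the 13 genes was 46651 and 42558 FPKM in the JOA libraries, against 57061 and 62297 FPKM in the control libraries, a ratio of the means of 0.747. The lower-lying genes were not lower by one common factor: MT-CO1 and MT-ND5 overlapped between the groups, whereas MT-CYB was at 0.533 of its control mean.

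**Figure D1:**
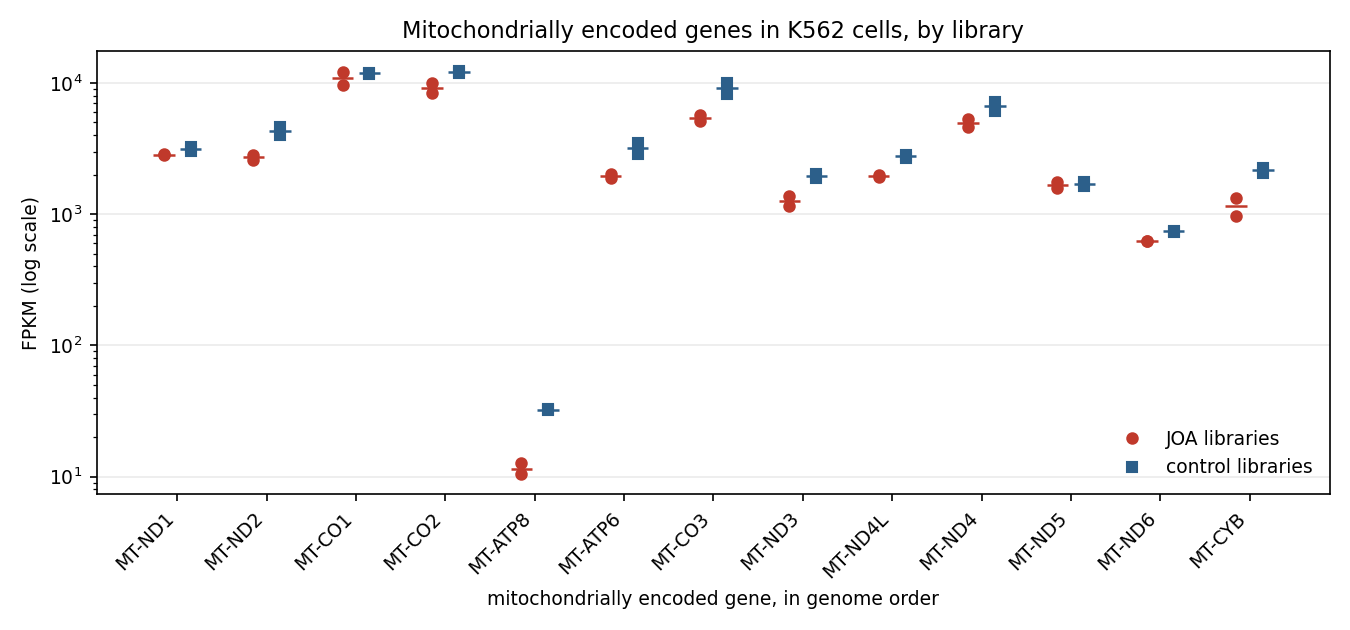
FPKM on a log scale of the 13 mitochondrially encoded genes in K562 cells, in genome order, with 1 point per library (red circles for the 2 JOA libraries, left, and blue squares for the 2 control libraries, right) and a line at each group mean. The JOA points lie below both control points for 11 genes and overlap them for MT-CO1 and MT-ND5, and MT-ATP8 lies near 22 FPKM while the other genes lie between 681 and 11333 FPKM on average.

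No K562 gene passed the test after adjustment. Genes were tested with limma on log2(FPKM + 0.5), and a gene was called where the adjusted p (Benjamini-Hochberg) was under 0.05 and its log2 fold change was 0.58 or more in size. This called 0 of 15635 genes higher (0%) and 0 lower (0%), with a smallest adjusted p of 0.171, so no K562 member is said here to rise or fall. At an unadjusted p under 0.05, 1787 genes were higher and 910 lower. With the same fold added, 841 genes (5.38%) were higher and 372 (2.38%) lower. The split was 530 higher and 687 lower under median-ratio scaling, 504 and 538 under quantile normalization and 1750 and 336 under TPM scaling. TPM values are larger while the filter of 0.5 and the added 0.5 stayed the same, so 20281 genes were tested under TPM scaling. By unadjusted p and fold on the deposited FPKM, 6 of the 13 mitochondrially encoded genes (MT-ND2, MT-ATP8, MT-ATP6, MT-CO3, MT-ND3 and MT-CYB) were lower and 0 higher. Without control replicate 2 the count was 2, without the filter on low values it was 1 and under quantile normalization it was 3. The median log2 fold change of the 13 was -0.49, beside 0.10 over all genes tested.

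Complex I takes 7 of its subunits from the mitochondrial genome, all part of its proton-pumping membrane arm. MT-ND2 was at 2605 and 2824 FPKM in the JOA libraries, against 3982 and 4616 FPKM in the control libraries (log2 fold change -0.66 ± 0.13 (SE), adjusted p = 0.236 by limma). MT-ND3 was at 1154 and 1369 FPKM with JOA, against 1883 and 2039 FPKM in the controls. MT-ND4L was at 1998 and 1918 FPKM with JOA, against 2689 and 2832 FPKM in the controls. Both JOA values of these 3 genes lay below both controls, with log2 fold changes between -0.66 and -0.49. Under quantile normalization the value was -0.17 for MT-ND3 and turned to 0.055 for MT-ND4L. MT-ND4 was at 5349 and 4639 FPKM with JOA, against 6091 and 7207 FPKM in the controls. MT-ND1 was at 2812 and 2881 FPKM with JOA, against 3048 and 3268 FPKM in the controls. The groups did not overlap for either gene, but the gap for MT-ND1 was small (log2 fold change -0.15 ± 0.11 (SE), turned to 0.17 under quantile normalization). MT-ND5 was at 1771 and 1589 FPKM with JOA, against 1630 and 1765 FPKM in the controls, and the groups overlapped fully. Its log2 fold change of -0.02 turned to 0.08 under TPM scaling, 0.01 under scaling on the other genes and 0.54 under quantile normalization. MT-ND6, the one protein gene on the other strand of the genome, was at 621 and 623 FPKM with JOA, against 741 and 738 FPKM in the controls. Its replicates lay within a few FPKM of each other and the groups did not overlap (log2 fold change -0.25 ± 0.09 (SE), adjusted p = 0.288 by limma), and quantile normalization turned the value to 0.086.

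MT-CYB, cytochrome b, is the only mitochondrially encoded subunit of complex III. It was at 1335 and 969 FPKM with JOA, against 2265 and 2061 FPKM in the controls (log2 fold change -0.93 ± 0.19 (SE), adjusted p = 0.236 by limma). Both JOA values were well below the lower control, although they differed from each other more than the controls did.

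Complex IV has its 3 catalytic core subunits on the mitochondrial genome. MT-CO1, which holds the oxygen-binding centre, was at 12058 and 9593 FPKM with JOA, against 11799 and 11882 FPKM in the controls, and JOA replicate 1 lay above both controls. MT-CO2, which receives electrons from cytochrome c, was at 9952 and 8407 FPKM with JOA, against 11822 and 12359 FPKM in the controls. MT-CO3, the third core subunit, was at 5110 and 5706 FPKM with JOA, against 8182 and 9988 FPKM in the controls. The 3 core subunits therefore differed among themselves, with log2 fold changes of -0.14 for MT-CO1, -0.40 for MT-CO2 and -0.74 for MT-CO3, and the sign for MT-CO1 turned to 0.07 under quantile normalization and to 0.03 without JOA replicate 2.

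For complex V, MT-ATP6 was at 1876 and 2025 FPKM with JOA, against 2898 and 3511 FPKM in the controls (log2 fold change -0.71 ± 0.14 (SE), adjusted p = 0.236 by limma). MT-ATP8 was at 10.5 and 12.6 FPKM with JOA, against 31.9 and 32.5 FPKM in the controls (log2 fold change -1.45 ± 0.13 (SE), adjusted p = 0.185 by limma). In reads this is 50 and 59 with JOA, against 154 and 155 in the controls, the thinnest counts of the 13. Although both genes lie on one mRNA, MT-ATP6 was listed at 179.5 and 160.8 times the level of MT-ATP8 in the JOA libraries, and at 90.7 and 107.9 times in the control libraries. How reads over the shared 46 bases, 22.2% of MT-ATP8 and 6.90% of MT-ATP6 together with the base shared with MT-CO3, were assigned is not given in the sources used here, so the level of MT-ATP8 and its ratio are uncertain.

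Since FPKM are relative to the library, each gene was also taken as a percentage of the summed FPKM of the 13 within its own library, a quantity that a scaling of the library does not change. MT-CO1 held 25.9% and 22.5% of the 13 with JOA, against 20.7% and 19.1% in the controls. MT-CYB held 2.86% and 2.28% with JOA, against 3.97% and 3.31% in the controls. MT-ND5 held 3.80% and 3.74% with JOA, against 2.86% and 2.83% in the controls. By this measure MT-CO1, MT-ND1, MT-ND5 and MT-ND6 lay above both controls, 7 genes lay below and 2 (MT-CO2 and MT-ND4) overlapped. Some of these gaps were narrow: the nearest JOA and control values were 3.22% and 3.27% for MT-ND3 and 4.51% and 4.545% for MT-ND4L. Shares of one sum rise where others fall, so MT-ND1 and MT-ND6 lay above both controls here although their FPKM lay below both. These shares were not tested.

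The 24 nuclear members encode subunits of all 5 complexes and were mostly at lower FPKM. Their lengths cover all annotated exons, such as 10908 bases for ATP5F1A, against 1542 for MT-CO1. The size of the gap between the 2 sets in FPKM is therefore uncertain. Their sum was 1357 and 1269 FPKM with JOA, against 1586 and 1554 FPKM in the controls, a ratio of the means of 0.836. The 13 mitochondrially encoded genes summed to 34.4 and 33.5 times the 24 with JOA, against 35.97 and 40.1 times in the controls. Of the 24, 16 had both JOA values below both controls, 2 had both above and 6 overlapped, beside 18.3% of all genes tested below and 36.8% above. Under TPM scaling 11 lay below and under median-ratio scaling 20, where the median log2 fold change over all genes was 0.22 and -0.03. Of the 23 that passed the filter of a mean of at least 0.5 FPKM, 1 was lower and 1 higher by unadjusted p and fold, and their median log2 fold change was -0.25. The mitochondrial minus nuclear difference of medians was -0.25 on the log2 scale, between -0.33 and -0.24 in the alternatives run other than quantile normalization, where it was -0.026. JOA replicate 1 lay above JOA replicate 2 for 20 of the 24, and without JOA replicate 2 the nuclear median was -0.13.

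**Figure D2:**
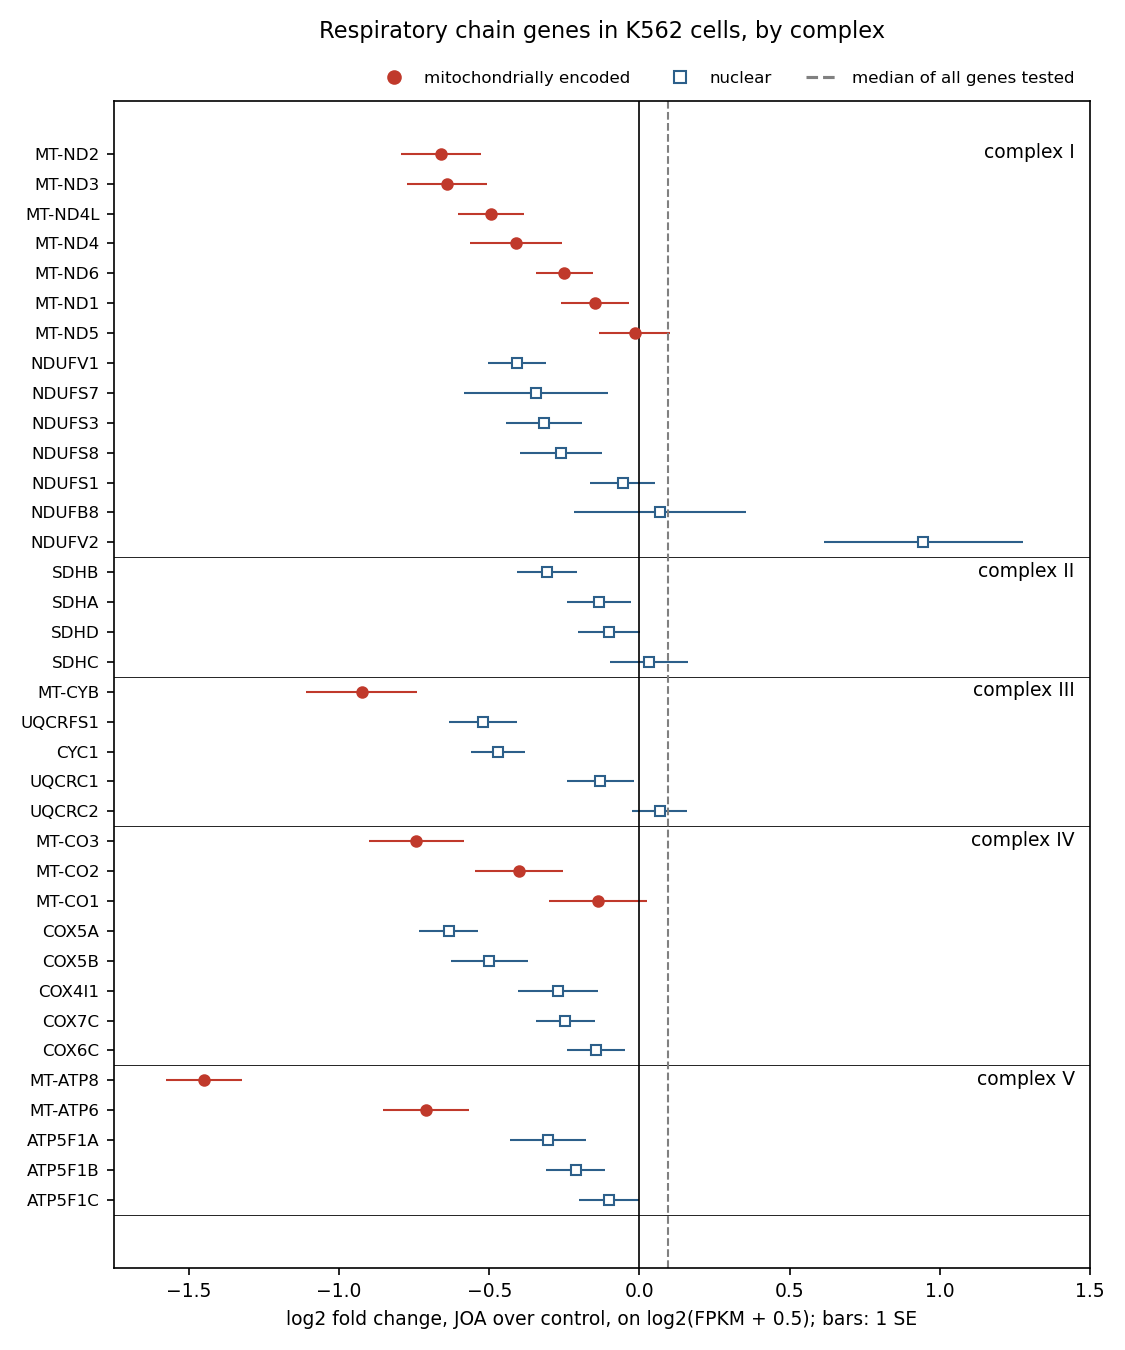
Log2 fold change of JOA over control (log2(FPKM + 0.5) scale, bars of 1 SE from limma) for the 36 tested members in K562 cells, grouped by complex, with red circles for mitochondrially encoded genes, open blue squares for nuclear genes and a dashed line at the median of all genes tested (0.10). All 13 mitochondrial genes and 19 of 23 nuclear genes lie left of 0, from MT-ATP8 at -1.45 to NDUFV2 at 0.95.

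Among nuclear subunits of complex I, NDUFV1, the subunit that binds NADH and FMN, had the highest level of the 8. It was at 62.7 and 59.3 FPKM with JOA, against 78.5 and 83.9 FPKM in the controls (log2 fold change -0.41 ± 0.10 (SE), adjusted p = 0.240 by limma). NDUFS3 was at 15.9 and 13.5 FPKM with JOA, against 19.1 and 17.6 FPKM in the controls. NDUFS8, which carries iron-sulfur clusters, was at 19.3 and 15.99 FPKM with JOA, against 22.4 and 19.95 FPKM in the controls. NDUFV1, NDUFS3 and NDUFS8 lay below both controls in both JOA libraries, though 19.7% of the exon bases of NDUFS3 are shared with another gene on the same strand. NDUFS1, the largest subunit of the electron-entry arm, was at 9.17 and 8.43 FPKM with JOA, against 9.22 and 9.08 FPKM in the controls, and the groups overlapped.

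The remaining 4 complex I genes were near the filter and rest on few reads. NDUFV2, an iron-sulfur partner of NDUFV1, was the one member higher by unadjusted p and fold. It was at 2.46 and 4.60 FPKM with JOA, against 1.19 and 1.91 FPKM in the controls (log2 fold change 0.95 ± 0.33 (SE), adjusted p = 0.275 by limma), which is 154 and 282 reads with JOA, against 75 and 119 in the controls. Part of its exons, 28.4%, is shared on the same strand with another annotated gene, so the counts may not be its own. NDUFS7 was at 0.557 and 0.458 FPKM with JOA, against 0.667 and 0.900 FPKM in the controls. NDUFB8 was at 1.04 and 0.708 FPKM with JOA, against 0.5799 and 1.07 FPKM in the controls. NDUFA9 was at 0.483 and 0.464 FPKM with JOA, against 0.393 and 0.481 FPKM in the controls, and its mean of 0.455 FPKM kept it out of the test. NDUFS7 did not overlap, whereas NDUFB8 and NDUFA9 did. All 3 share exon bases with other annotated genes as well, 49.1% of NDUFS7, 48.5% of NDUFB8 and 10.6% of NDUFA9, counting both strands, so their levels are uncertain too. These 4 subunits are needed in equal numbers in complex I, yet were listed far below NDUFV1. In reads of JOA replicate 1 they were at 154 (NDUFV2), 97 (NDUFS7), 48 (NDUFB8) and 116 (NDUFA9), against 7334 for NDUFV1.

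Complex II (succinate dehydrogenase) has no mitochondrially encoded subunit. SDHB, its iron-sulfur subunit, was at 39.3 and 36.1 FPKM with JOA, against 47.8 and 45.7 FPKM in the controls (log2 fold change -0.31 ± 0.10 (SE), adjusted p = 0.265 by limma). SDHA, the flavoprotein, was at 27.2 and 24.2 FPKM with JOA, against 28.1 and 28.4 FPKM in the controls. SDHD, a membrane anchor, was at 20.4 and 18.6 FPKM with JOA, against 20.7 and 21.1 FPKM in the controls. The groups of these 3 genes did not overlap, but those of SDHA and SDHD were separated by less than 1 FPKM. SDHC, the other anchor, was at 10.2 and 8.49 FPKM with JOA, against 8.98 and 9.16 FPKM in the controls, and overlapped. Complex II had the nuclear median nearest to 0, a log2 fold change of -0.12, while those of the other complexes lay between -0.30 and -0.21.

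In complex III, the nuclear subunits that carry redox centres had lower log2 fold changes than the core proteins, a difference that was not tested. UQCRFS1, the Rieske iron-sulfur protein, was at 19 and 16.6 FPKM with JOA, against 26.3 and 25.1 FPKM in the controls (log2 fold change -0.52 ± 0.11 (SE), adjusted p = 0.236 by limma). CYC1, cytochrome c1, was at 59.3 and 61.7 FPKM with JOA, against 84.2 and 83.8 FPKM in the controls (log2 fold change -0.47 ± 0.09 (SE), adjusted p = 0.236 by limma). UQCRC1, a core protein, was at 63.9 and 55.7 FPKM with JOA, against 67.0 and 63.7 FPKM in the controls. UQCRC2, the other core protein, was at 57.0 and 58.8 FPKM with JOA, against 54.0 and 56.4 FPKM in the controls. UQCRFS1 and CYC1 lay well below the controls in both libraries, UQCRC1 overlapped, and UQCRC2 lay just above both controls, with a log2 fold change of 0.07 that turned to -0.08 under median-ratio scaling.

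In FPKM as deposited, all 5 nuclear members of complex IV had both JOA values below both controls, beside 18.3% of all genes tested. Such counts depend on scaling: of the 24 nuclear members, 16 lay below as deposited and 11 under TPM scaling. COX5A was at 62.5 and 67.8 FPKM with JOA, against 103 and 99.2 FPKM in the controls (log2 fold change -0.64 ± 0.10 (SE), adjusted p = 0.226 by limma). It was the only nuclear member lower by unadjusted p and fold, a count that was 0 under TPM scaling and quantile normalization and 4 under median-ratio scaling, and had the lowest ratio of means among nuclear members, 0.642. COX5B was at 66.7 and 55.9 FPKM with JOA, against 90.9 and 82.5 FPKM in the controls. COX4I1, the ubiquitous form of subunit IV, was at 50.3 and 41.4 FPKM with JOA, against 57.7 and 52.8 FPKM in the controls. COX7C was at 60.9 and 57.7 FPKM with JOA, against 73.1 and 67.8 FPKM in the controls. COX6C was at 26.5 and 25.1 FPKM with JOA, against 29.2 and 28.03 FPKM in the controls. The log2 fold changes ran from -0.64 for COX5A to -0.15 for COX6C.

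The catalytic head of complex V is nuclear. ATP5F1B, its catalytic beta subunit, was the most abundant nuclear member, at 558 and 527 FPKM with JOA, against 629 and 628 FPKM in the controls (log2 fold change -0.21 ± 0.10 (SE), adjusted p = 0.332 by limma). ATP5F1A, the alpha subunit, was at 32.7 and 26.9 FPKM with JOA, against 37.3 and 36.3 FPKM in the controls. ATP5F1C, the gamma subunit that turns within the head, was at 90.6 and 83.3 FPKM with JOA, against 96.2 and 90.4 FPKM in the controls. The first 2 genes did not overlap and ATP5F1C did. Quantile normalization turned the sign for ATP5F1B to 0.05 and for ATP5F1C to 0.02.

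The promoters of the nuclear members were examined for 2 motifs tied to respiratory genes in general knowledge. These are the consensus of NRF1 and the core of ETS sites (CCGGAAG), bound by factors such as GABP. Windows from 250 bases before to 50 after the gene start came from RefSeq on GRCh38.p14, which held 23 windows for 20 of the 24 nuclear members, and both strands were searched. The NRF1 motif was in 6 and the ETS core in 7 of the 20 genes, and either of them in 12, counting a gene where any of its windows matched, while 5.78%, 10.3% and 14.9% of all 35116 windows held the NRF1 motif, the ETS core and either one. The windows of UQCRFS1 (minus strand, chr19:29213102-29213401) and COX5B (plus strand, chr2:97645812-97646111) are shown because these genes had the lowest log2 fold changes among nuclear members with a match. Capitals mark the NRF1 match, from 31 to 22 bases before the start of UQCRFS1, and the pair of ETS core matches of COX5B. Such matches are letters in a window and do not show that a factor binds. COX5A, whose log2 fold change was the lowest of the nuclear members, held neither motif. The other tested genes with an NRF1 match were at -0.14 (SDHA), -0.13 (UQCRC1), -0.10 (ATP5F1C) and -0.10 (SDHD). Those with an ETS core match, COX5B apart, ran from -0.32 (NDUFS3) to -0.05 (NDUFS1), and genes with neither motif from -0.64 (COX5A) to 0.95 (NDUFV2). A link between the motifs and the JOA values was not tested.
UQCRFS1: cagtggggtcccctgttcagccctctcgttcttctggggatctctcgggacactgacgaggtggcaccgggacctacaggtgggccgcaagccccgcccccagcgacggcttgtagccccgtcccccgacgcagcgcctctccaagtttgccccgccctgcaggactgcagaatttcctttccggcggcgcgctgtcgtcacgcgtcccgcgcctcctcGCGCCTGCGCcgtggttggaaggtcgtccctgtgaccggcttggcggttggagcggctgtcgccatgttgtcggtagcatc
COX5B: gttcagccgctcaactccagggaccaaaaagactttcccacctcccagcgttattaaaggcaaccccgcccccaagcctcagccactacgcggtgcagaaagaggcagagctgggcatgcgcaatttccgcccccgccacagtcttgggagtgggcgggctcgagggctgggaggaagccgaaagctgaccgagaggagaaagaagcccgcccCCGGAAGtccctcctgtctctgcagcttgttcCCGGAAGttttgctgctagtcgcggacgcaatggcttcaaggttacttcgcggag

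The 13 mitochondrially encoded genes held 16.6% and 15.2% of the summed FPKM of the JOA libraries, against 19.1% and 20.6% in the control libraries. The difference of -3.98 percentage points (JOA minus control) is larger in size than the spread between replicates (SD 0.942 with JOA and 1.07 in the controls), but 2 against 2 libraries cannot give a p below 0.333 in an exact permutation test. In reads, the members held 4.87% and 4.31% with JOA, against 5.66% and 6.13% in the controls. The 2 rRNAs of the mitochondrial ribosome, cut from the same long transcripts, lay on the other side of the controls. MT-RNR2, the large one, was at 9011 and 11346 FPKM with JOA, against 5338 and 6919 FPKM in the controls (log2 fold change 0.73 ± 0.20 (SE), adjusted p = 0.248 by limma). MT-RNR1, the small one, was at 628 and 656 FPKM with JOA, against 530 and 597 FPKM in the controls. Both lay above both controls, and MT-RNR2 equalled 19.3% and 26.7% of the summed 13 mRNAs with JOA, against 9.35% and 11.1% in the controls. These libraries were made from polyadenylated RNA, so how much rRNA enters them depends on the selection, and its part in the result was not tested.

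**Figure D3:**
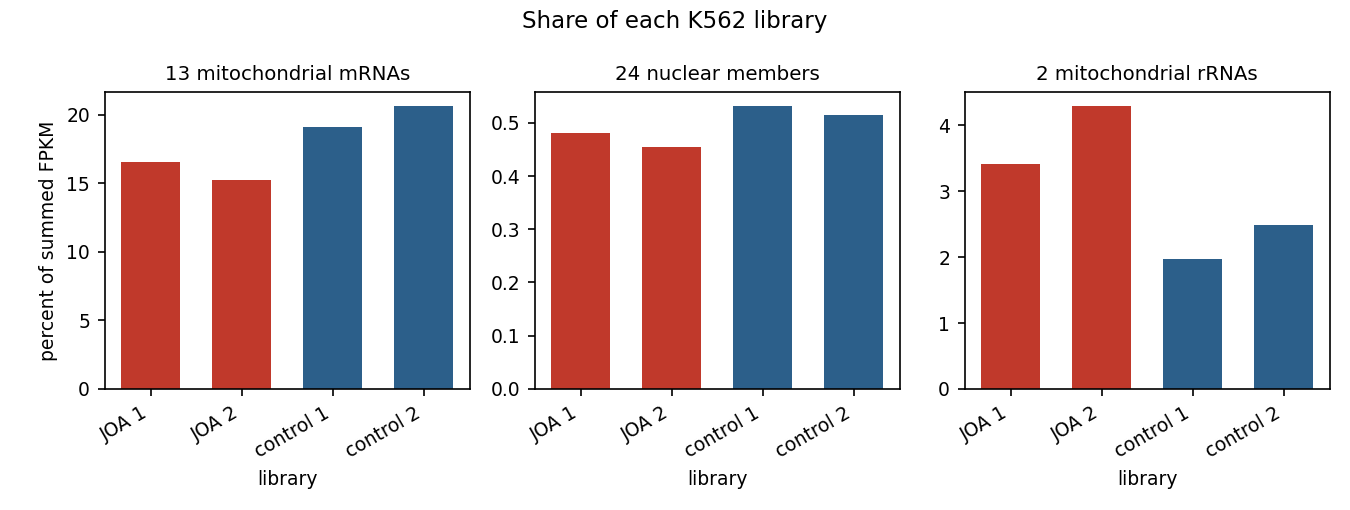
Percent of the summed FPKM of each K562 library (red bars for JOA, blue bars for control, 1 bar per library, each panel with its own axis from 0) held by the 13 mitochondrial mRNAs, the 24 nuclear members and the 2 mitochondrial rRNAs. The mRNA share was 16.6% and 15.2% with JOA, against 19.1% and 20.6% in the controls, while the rRNA share was 3.42% and 4.29% with JOA, against 1.97% and 2.49% in the controls.

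Nuclear pseudogenes share sequence with the mitochondrial genes, so reads of a gene and its copies may not be told apart. Of 93 such pseudogenes in the table, 86 had a mean under 0.5 FPKM and 3 a mean of at least 5 FPKM. MTATP6P1, a copy of MT-ATP6, was at 302 and 325 FPKM with JOA, against 491 and 560.3 FPKM in the controls. MTND2P28, a copy of MT-ND2, was at 125 and 123 FPKM with JOA, against 174 and 204 FPKM in the controls. MTCO1P12, a copy of MT-CO1, was at 11.3 and 8.56 FPKM with JOA, against 11.1 and 10.2 FPKM in the controls. Each kept a nearly fixed ratio to its parent gene, from 15.96% to 16.96% of MT-ATP6, from 4.36% to 4.82% of MT-ND2 and from 0.0856% to 0.0941% of MT-CO1, in all 4 libraries.

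Other subunits and partners of the chain in K562 cells followed lists drawn up for this report. Of 54 other nuclear subunits of complexes I, III, IV and V, 53 were tested, and 42 had both JOA values below both controls while 1 had both above, beside 18.3% and 36.8% of all genes. By unadjusted p and fold 7 were lower and 0 higher, and the median log2 fold change was -0.33, close to that of the nuclear members. All 14 other subunits of complex V lay below both controls. Among them ATP5MC1, a gene for the membrane ring, was at 19.3 and 12.96 FPKM with JOA, against 27.98 and 24.5 FPKM in the controls. ATP5F1E, the epsilon subunit, was at 17.2 and 13.4 FPKM with JOA, against 24.4 and 23.3 FPKM in the controls. ATP5F1D, the delta subunit, was at 22 and 18.8 FPKM with JOA, against 33.3 and 30.3 FPKM in the controls. ATP5PB, of the peripheral stalk and the most abundant of that list, was at 81.4 and 66.7 FPKM with JOA, against 104 and 96.5 FPKM in the controls. In complex I, 20 of 28 tested lay below both controls, with NDUFB7 at 88.4 and 82.3 FPKM with JOA, against 142 and 126 FPKM in the controls, NDUFS6 at 54.4 and 38.3 FPKM with JOA, against 73.4 and 65.1 FPKM in the controls, and the most abundant, NDUFS5, at 190.4 and 161 FPKM with JOA, against 199.9 and 208 FPKM in the controls. In complex III, UQCR10 was at 29.1 and 22.3 FPKM with JOA, against 43.7 and 39.9 FPKM in the controls, and UQCRH at 200.4 and 199 FPKM with JOA, against 230.2 and 238 FPKM in the controls. In complex IV, COX6B1 was at 90.7 and 79.8 FPKM with JOA, against 118 and 111 FPKM in the controls. Of the genes listed under tissue or hypoxia isoforms, 3 were tested, and 0 lay below both controls and 1 above. That list was drawn up loosely, and its most abundant gene, COX7A2L, need not be such an isoform. COX7A2L overlapped, at 13.96 and 18.1 FPKM with JOA, against 16.9 and 17.4 FPKM in the controls.

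Genes that build and feed the chain were taken from 8 further lists. Over all genes tested, 18.3% lay below both controls and 36.8% above, and 2.38% were lower and 5.38% higher by unadjusted p and fold. Mitochondrial ribosomal proteins, which translate the 13 mRNAs, had 61 of 77 tested genes below both controls and 4 above, with 11 lower and 1 higher by unadjusted p and fold and a median log2 fold change of -0.26. MRPL41 was at 13.2 and 13.9 FPKM with JOA, against 34.3 and 27.3 FPKM in the controls. MRPS34, the most abundant of them, was at 50.7 and 46.3 FPKM with JOA, against 89.1 and 82.1 FPKM in the controls. MRPL12 was at 1.05 and 1.16 FPKM with JOA, against 3.17 and 2.20 FPKM in the controls. Most of these protein genes thus lay below the controls in the same libraries in which both rRNAs lay above them.

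Of 47 tested assembly factors, 24 lay below both controls and 5 above, with 2 lower and 0 higher by unadjusted p and fold (median log2 fold change -0.13). Over all genes tested, 18.3% lay below both controls and 36.8% above. DMAC1, an assembly factor of complex I, was at 7.47 and 5.11 FPKM with JOA, against 11.1 and 9.29 FPKM in the controls, and NDUFAF8 at 3.52 and 2.47 FPKM with JOA, against 5.77 and 4.26 FPKM in the controls. The most abundant assembly factor was COA4, at 29.01 and 21.2 FPKM with JOA, against 36.4 and 31.6 FPKM in the controls. Among 15 genes that copy and transcribe mitochondrial DNA, 8 lay below both controls and 2 above (median log2 fold change -0.14). TFAM, which packages and activates that DNA, was at 31.1 and 27.3 FPKM with JOA, against 34.5 and 33.4 FPKM in the controls. TWNK, the helicase, was at 7.97 and 5.77 FPKM with JOA, against 12.1 and 10.01 FPKM in the controls. Among 19 genes for processing and stability of mitochondrial RNA, 11 lay below both controls and 3 above (median log2 fold change -0.16). SLIRP, which with LRPPRC protects mitochondrial mRNAs, was at 9.19 and 6.57 FPKM with JOA, against 14.5 and 10.5 FPKM in the controls. HSD17B10, a subunit of the enzyme that cuts tRNA 5′ ends, was at 59.4 and 37.1 FPKM with JOA, against 76.0 and 67.0 FPKM in the controls.

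Among 18 citric acid cycle and pyruvate dehydrogenase genes, 13 lay below both controls and 2 above (median log2 fold change -0.17), beside 18.3% and 36.8% of all genes tested. MDH2, malate dehydrogenase, was at 158 and 141 FPKM with JOA, against 198 and 196 FPKM in the controls. Among 11 tested genes for cytochrome c and coenzyme Q synthesis, 5 lay below both controls and 2 above (median -0.18). CYCS, cytochrome c itself, was at 69.8 and 57.9 FPKM with JOA, against 100.4 and 88.4 FPKM in the controls. Of 8 tested regulators of mitochondrial gene expression, 2 lay below both controls and 1 above (median -0.08). The most abundant regulator, ESRRA, a nuclear receptor that activates respiratory genes, was at 24.9 and 20.7 FPKM with JOA, against 29.6 and 28.9 FPKM in the controls. Of 10 proteases and prohibitins, 3 lay below both controls and 2 above (median -0.015). The most abundant of them, PHB2, was at 83.2 and 71.2 FPKM with JOA, against 108 and 103 FPKM in the controls. In all the K562 lists together, no gene was called after adjustment in limma (smallest adjusted p 0.226 among the named list genes). Erythroid markers, which fit the known character of K562 cells, were all detected, 11 of 11, and their summed level was 2717 and 1880 FPKM with JOA, against 5366 and 5036 FPKM in the controls. The 6 T and B cell markers summed to 16.2 and 10.2 FPKM with JOA, against 8.95 and 7.77 FPKM in the controls, with 1 at 0 in every library, and the 6 monocyte and granulocyte markers to 30.3 and 20.7 FPKM with JOA, against 22.6 and 17.1 FPKM in the controls, with none at 0 in every library. Their part in the differences of the respiratory genes was not tested.

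In BaF3-T315I cells, JOA changed many genes, and of the 13 mitochondrially encoded ones the test called only mt-Cytb. Of 12872 genes tested, 1207 (9.38%) were called higher and 1961 (15.2%) lower, with 1583 and 1501 under median-ratio scaling and 1565 and 1538 under quantile normalization. mt-Cytb (ENSMUSG00000064370), mouse cytochrome b, fell to 1948 and 1924 FPKM in the JOA libraries, against 3250 and 2979 FPKM in the control libraries (log2 fold change -0.68 ± 0.14 (SE), adjusted p = 0.0227 by limma). The call was lost without JOA replicate 2 (adjusted p = 0.0558), without control replicate 1 (0.123) and without control replicate 2 (0.111), where no gene at all was called. It was also lost with no filter on low values (0.453), and under median-ratio scaling its log2 fold change of -0.57 was short of the fold. Of the 13 genes, 8 had both JOA values below both controls, 1 had both above and 4 overlapped. Without mt-Atp8, which was under the filter, 7 of the 12 tested lay below both controls and 1 above. Over all genes tested, 44.5% lay below and 28.5% above. Among the 8 below both controls, mt-Co2, mt-Atp8, mt-Atp6, mt-Co3 and mt-Nd4l have low and uncertain levels, as set out later. The count below was also 8 under TPM scaling, median-ratio scaling and scaling on the other genes, but 4 genes lay above (mt-Co1, mt-Nd4, mt-Nd5 and mt-Nd6) under median-ratio scaling, and 0 under TPM scaling and scaling on the other genes. The median log2 fold change of the 12 tested was -0.40, beside -0.11 over all genes.

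**Figure D4:**
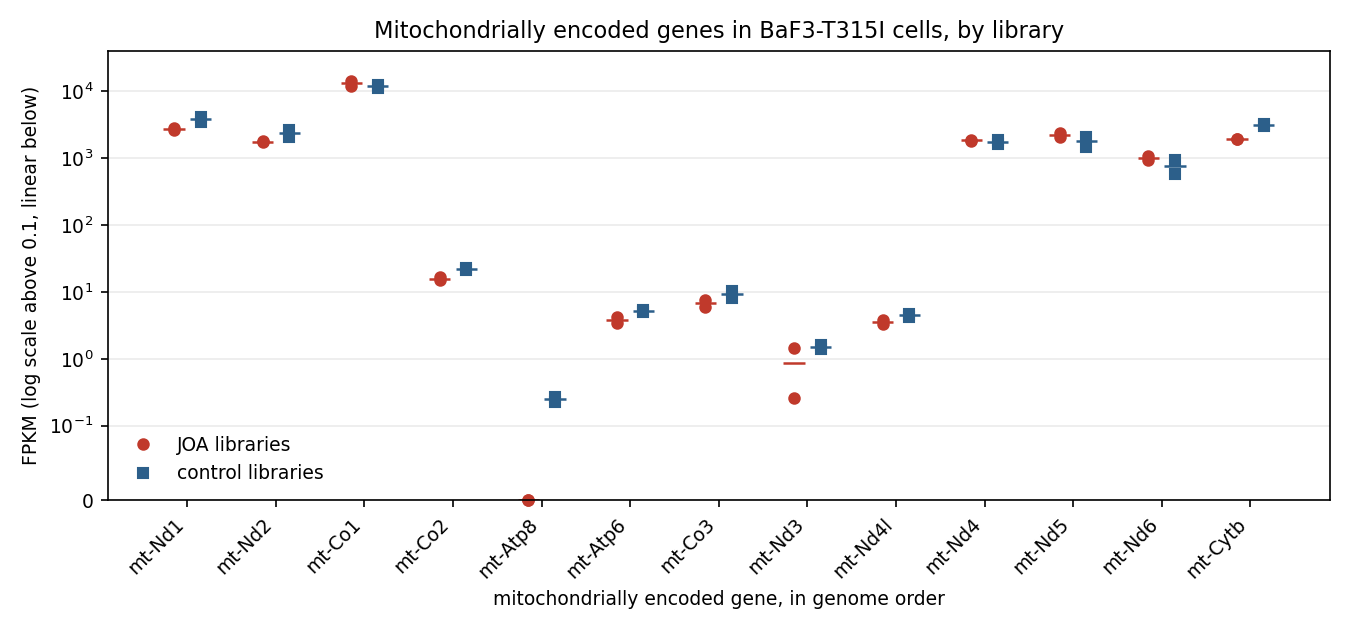
FPKM of the 13 mitochondrially encoded genes in BaF3-T315I cells, in genome order (log scale above 0.1 FPKM, linear below), with 1 point per library (red circles for the 2 JOA libraries, left, and blue squares for the 2 control libraries, right) and a line at each group mean. The 6 genes from mt-Co2 to mt-Nd4l average 0.124 to 19.03 FPKM, whereas the 7 others average 875 to 12453 FPKM, and mt-Atp8 is listed at 0 in both JOA libraries.

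The mouse genes lay at 2 very different levels. The 7 high ones were mt-Co1, mt-Nd1, mt-Cytb, mt-Nd2, mt-Nd5, mt-Nd4 and mt-Nd6, in falling order of their means. mt-Nd1 (ENSMUSG00000064341) was at 2638 and 2847 FPKM with JOA, against 4077 and 3486 FPKM in the controls (log2 fold change -0.46 ± 0.16 (SE), adjusted p = 0.0868 by limma). mt-Nd2 (ENSMUSG00000064345) was at 1719 and 1780 FPKM with JOA, against 2614 and 2065 FPKM in the controls. Both, subunits of complex I, lay below both controls without passing the test. mt-Co1 (ENSMUSG00000064351), the catalytic subunit of complex IV, was at 11975 and 14242 FPKM with JOA, against 12403 and 11192 FPKM in the controls, and overlapped. mt-Nd4 (ENSMUSG00000064363) was at 1819 and 1884 FPKM with JOA, against 1839 and 1609 FPKM in the controls, and overlapped too. mt-Nd5 (ENSMUSG00000064367) was at 2083 and 2353 FPKM with JOA, against 2076 and 1476 FPKM in the controls. Its JOA values were above both controls, with JOA replicate 1 close to control replicate 1, and overlapped under TPM scaling. mt-Nd6 (ENSMUSG00000064368), on the other strand, was at 925 and 1061 FPKM with JOA, against 930 and 584 FPKM in the controls. Control replicate 2 was the lowest library for mt-Nd5 and mt-Nd6, and also for mt-Co1 and mt-Nd4. It lay below control replicate 1 for mt-Nd1, mt-Nd2 and mt-Cytb as well.

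The 6 low genes lie next to each other in the genome, and their levels are uncertain. Their neighbours on either side, mt-Co1 and mt-Nd4, were listed far above them, although all are cut from the same long RNA and their human counterparts, MT-ATP8 apart, were at 1611 FPKM or more. How reads were assigned there is not given in the sources used here. mt-Co2 (ENSMUSG00000064354) was at 16.7 and 14.9 FPKM with JOA, against 21.4 and 23.1 FPKM in the controls (log2 fold change -0.48 ± 0.11 (SE), adjusted p = 0.0269 by limma, short of the fold). mt-Atp6 (ENSMUSG00000064357) was at 4.19 and 3.47 FPKM with JOA, against 5.42 and 4.92 FPKM in the controls. mt-Co3 (ENSMUSG00000064358) was at 7.51 and 6.03 FPKM with JOA, against 8.02 and 10.3 FPKM in the controls. These 3 lay below both controls. mt-Nd4l (ENSMUSG00000065947) was at 3.35 and 3.74 FPKM with JOA, against 4.2 and 4.70 FPKM in the controls. mt-Nd3 (ENSMUSG00000064360) was at 0.260 and 1.46 FPKM with JOA, against 1.40 and 1.61 FPKM in the controls. mt-Atp8 (ENSMUSG00000064356) was listed at 0 in both JOA libraries and at 0.266 and 0.228 FPKM in the controls, under the filter, so it was not tested. mt-Nd4l did not overlap, and mt-Nd3 overlapped, with its low JOA value in replicate 1 alone.

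As a sum, the 13 mouse genes overlapped between the groups. They summed to 23138 and 26121 FPKM with JOA, against 27230 and 23437 FPKM in the controls, which is 6.65% and 7.84% of the summed FPKM with JOA, against 8.32% and 7.28% in the controls. The difference of -0.551 percentage points (JOA minus control) was within the spread between replicates (SD 0.843 with JOA and 0.736 in the controls). As shares of that sum, mt-Co1 held 51.8% and 54.5% with JOA, against 45.6% and 47.8% in the controls. mt-Cytb held 8.42% and 7.37% with JOA, against 11.9% and 12.7% in the controls. mt-Nd5 held 9.01% and 9.01% with JOA, against 7.63% and 6.30% in the controls. By share of the sum, mt-Co1, mt-Nd4, mt-Nd5 and mt-Nd6 lay above both controls, 7 genes lay below and 2 overlapped, which was not tested. In FPKM as deposited, only mt-Nd5 lay above both controls.

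The 2 lines are of different species and their tables were normalized separately, so the values are set side by side and the difference between the lines was not tested. Of the 13 genes, 8 lay below both controls in both lines (ND1, ND2, CO2, ATP8, ATP6, CO3, ND4L and cytochrome b). Among these, CO2, ATP8, ATP6, CO3 and ND4L have the uncertain mouse levels above. Over all genes tested, 18.3% in K562 and 44.5% in BaF3-T315I lay below both controls. Mouse ATP8 was under the filter and is not among the genes tested. As deposited, none of the 13 lay below in one line and above in the other. Under median-ratio scaling 3 genes did (CO1, ND4 and ND6, below in K562 and above in BaF3-T315I), and under TPM scaling 7 lay below in both lines. Cytochrome b had a log2 fold change of -0.93 in K562 and -0.68 in BaF3-T315I. For ND5 the values were -0.02 in K562 and 0.34 in BaF3-T315I, and for CO1 they were -0.14 in K562 and 0.15 in BaF3-T315I. Across the 12 genes tested in both lines, which share libraries within each line, Pearson's r of the log2 fold changes was 0.72 and Spearman's rho 0.56, as a description across genes that are not independent replicates, 5 of which have the uncertain mouse levels above. The ratio of CO1 to cytochrome b, picked after the values were seen, needs no scaling of the library: it was 9.03 and 9.90 with JOA, against 5.21 and 5.76 in the controls, in K562 cells, and 6.15 and 7.40 with JOA, against 3.82 and 3.76 in the controls, in BaF3-T315I cells. In neither line did the groups overlap in this ratio.

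**Figure D5:**
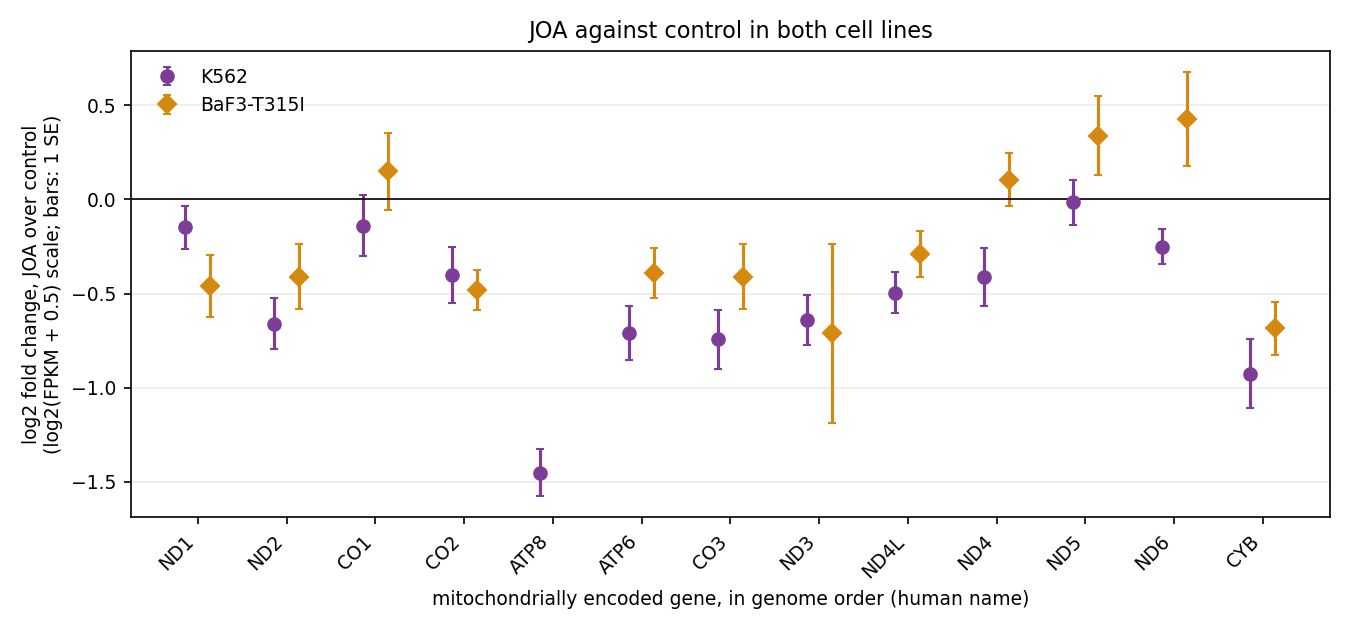
Log2 fold change of JOA over control (log2(FPKM + 0.5) scale, bars of 1 SE from limma) of the mitochondrially encoded genes in genome order, with purple circles for K562 and orange diamonds for BaF3-T315I (no point for mouse ATP8, which was not tested). Cytochrome b lies at -0.93 and -0.68 and ND5 at -0.02 and 0.34, and the BaF3-T315I values of CO1, ND4, ND5 and ND6 lie above 0.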

How the data were processed

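Polyadenylated RNA of K562 and BaF3-T315I cells was sequenced from TruSeq Stranded mRNA libraries. The deposited values are FPKM, made by the authors. Builds hg38 and mm10 and the tools HTSeq, Cufflinks, HISAT2 and Trimmomatic are listed in the submitters' processing notes, without versions or roles. The paper's methods name TPM, but the columns sum to 279624 to 348007. K562 symbols were matched for 34749 of 35141 identifiers, and positions come from GENCODE 29. The BaF3-T315I table gives identifiers only, so its cell type was not checked against markers. Mouse names are those given with the listed identifiers. The K562 FPKM times exon length gave whole reads (within 0.05) for 96.2% to 96.3% of genes under 1000 reads, at depths of 22625603 to 23292640 reads. BaF3-T315I depths are known only relative to control replicate 1 (1.16 to 1.20 for the others). Reads without molecular identifiers carry more than counting error.

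JOA was compared with control within each line by limma 3.58.1 in R 4.3.3 on log2(FPKM + 0.5), two-sided, with a variance trend and without covariates, for genes averaging 0.5 FPKM or more, with Benjamini-Hochberg adjustment over all of them. A fold change on this scale understates low genes. On simulated data at these group sizes, 57.2% (K562) and 73.6% (BaF3-T315I) of genes changed by 1 on the log2 scale were called. The simulated noise was independent and normal at the fitted spread, which real libraries need not follow. These shares therefore do not tell how many real changes would be called, and 0 called K562 genes do not show an absence of changes. The members and lists were chosen with earlier results of these data known. All members are named, with the gene of highest mean and up to 3 of the largest changes in each other list (unadjusted p under 0.05, log2 fold change 0.58 or more in size), both mitochondrial rRNAs and pseudogenes with a mean of at least 5 FPKM. COX6A2, SCO2 and ESRRG were listed and not matched. Alternatives were other pseudocounts, filters, scalings, no variance trend, a replicate block and each library left out. Tables and plots used Python 3.11.15, pandas 2.3.3, numpy 2.4.6 and matplotlib 3.10.9.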

Additional observations from a re-analysis of the deposited data

How the results depend on the processing

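In K562 cells, scaling moved the medians but not their sign. The median log2 fold change was -0.40 for mitochondrially encoded and -0.13 for nuclear members under TPM scaling, -0.64 and -0.39 under median-ratio scaling, and -0.17 and -0.15 under quantile normalization, where the median over all genes was 0.22, -0.03 and 0.00. The mitochondrial minus nuclear difference was -0.026 under quantile normalization, which by its construction gives every library the same set of values and so the same top values. Genes higher by unadjusted p and fold numbered 1750 under TPM (20281 genes tested), 530 under median-ratio and 504 under quantile scaling and 250 at a mean of at least 5 FPKM (7812 genes tested). Lower ones numbered 687 under median-ratio scaling and 215 at that mean, where 2 genes were called higher and 2 lower. Mitochondrially encoded members lower by that criterion numbered 1 with no filter and 3 under quantile normalization, and nuclear ones 0 under TPM, 4 under median-ratio and 0 under quantile scaling. The share of reads in place of summed FPKM gave a difference of -1.31 percentage points. Leaving out 1 library, K562 genes higher numbered 530 to 1862 and lower 233 to 761, mitochondrial members lower 2 to 6 and nuclear ones 1 to 2, with the nuclear median at -0.29 to -0.13.

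Signs turned for MT-ND5 (0.081 under TPM, 0.011 scaled on other genes, 0.54 under quantile normalization) and NDUFS1 (0.038 under TPM). Under median-ratio scaling they turned for NDUFB8 (-0.019), SDHC (-0.10) and UQCRC2 (-0.076). Under quantile normalization they turned for MT-ND1 (0.17), MT-CO1 (0.072), MT-ND4L (0.055), MT-ND6 (0.086), NDUFB8 (-0.11), SDHC (-0.057), ATP5F1B (0.050), ATP5F1C (0.023) and, in BaF3-T315I cells, mt-Nd4 (-0.13). With 1 library left out, the sign turned for NDUFB8 (without JOA replicate 1 and control replicate 1, over -0.20 to 0.34), SDHC (without JOA replicate 1, over -0.090 to 0.16), COX7A2L (without JOA replicate 1, over -0.29 to 0.075), MT-CO1 (without JOA replicate 2, over -0.30 to 0.026), MT-ND5 (without JOA replicate 2 and control replicate 2, over -0.094 to 0.062), NDUFS1 (without JOA replicate 2, over -0.11 to 0.0022) and MTCO1P12 (without JOA replicate 2, over -0.30 to 0.088), each given with its range over the 4 libraries. The cause was not tested.

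In BaF3-T315I cells the median of the mitochondrially encoded members was -0.42 and -0.37 with pseudocounts of 0.1 and 1, -0.48 under TPM, -0.29 under median-ratio and -0.27 under quantile scaling, -0.47 scaled on other genes and -0.34 to -0.30 with 1 library left out. Members called lower numbered 0 with no filter, 0 under median-ratio scaling, 3 under quantile normalization (mt-Nd1 at -0.62 and mt-Nd2 at -0.59 joined mt-Cytb) and 0 to 1 with 1 library left out, the 1 without JOA replicate 2 being mt-Nd3 (-1.40, adjusted p = 0.0414 by limma). Genes called higher numbered 0 to 947 and lower 0 to 2071 with 1 library left out, 0 in both without control replicate 2.

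A replicate block left the K562 medians at -0.49 and -0.25, the difference at -0.25, the BaF3-T315I median at -0.40 and the BaF3-T315I genes called at 1195 and 1938, and changed no other call. Deviations of libraries with the same number correlated at 0.19 in K562 and 0.01 in BaF3-T315I cells, and 2 pairs do not show that numbers pair the libraries. Depth limits MT-ATP8, NDUFS7, NDUFB8, NDUFA9 and the low mouse genes most.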
